A study of Mus musculus with 9 samples.

Results

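Transcripts of 10 genes of the transforming growth factor beta (TGF-beta) pathway were followed in the submandibular salivary gland of the mouse between 30 and 90 days after irradiation. The genes were chosen by name, as pathway genes linked to radiation fibrosis, and comprise the ligands Tgfb1, Tgfb2, Tgfb3 and Inhba, the latency protein Ltbp1, the receptors Tgfbr1, Tgfbr2 and Tgfbr3, and the signal transducers Smad3 and Smad7. All 10 were found by Ensembl identifier among the 54532 genes of the count table, and all 10 passed the filter on low counts, which kept 15224 genes. The study profiled glands of wild-type mice (genotype WT) by bulk RNA sequencing, and its design text concerns degeneration that ends in permanent loss of gland function. The 9 libraries form 3 groups of 3, all treated with 10 Gy of radiation and collected 30, 60 or 90 days later. RNA came from tissue sections of the gland, so all cell types in the sections contribute. Strain, sex and age are not given in the labels, and non-irradiated glands were not analysed here. Every comparison sets irradiated glands against irradiated glands, and the effect of the interval after 10 Gy cannot be told apart from that of ageing. The labels do not say whether samples of a group came from separate mice, so the p-values measure the spread between these samples.

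TGF-beta ligands are secreted as dimers held inactive by their own propeptide, and the propeptide is bound to a latent TGF-beta binding protein such as the product of Ltbp1, which ties the complex to the extracellular matrix. Integrins and thrombospondin can release the ligand, which then binds the type II receptor (Tgfbr2) and draws in the type I receptor (Tgfbr1), and this kinase phosphorylates the Smad transcription factors that carry the signal to the nucleus. The co-receptor betaglycan (Tgfbr3) presents the ligand encoded by Tgfb2 to the signalling receptors, Smad7 is an inhibitory Smad that the pathway itself induces, and Inhba encodes the activin A subunit, a related ligand that uses other receptors and the same Smads. The pathway drives matrix deposition and is a known mediator of fibrosis after radiation.

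Library totals ran from 16541396 to 17179500 counts at 30 days and from 20410818 to 26065856 at 60 and 90 days, so the 30-day libraries were the shallowest. Mitochondrial transcripts made up 1.54% to 2.37% of counts, and the secretory gene Mucl2 took 31.4% to 42.8%. The identity of the tissue was checked by acinar genes (Mucl2, Aqp5, Bhlha15) and granular duct genes (Egf, Ren1, kallikreins), which were present in every library. Another gene of the acinar list, Dcpp1, was low, with 1 count in 30-day sample 1 and at most 7.60 CPM. Markers of skeletal muscle were near 0, with a summed level of 1.36 to 2.76 CPM. Levels are given as CPM, the counts of a gene scaled by the total of its library, after TMM scaling (trimmed mean of M-values) had set the libraries to a common scale. Differences are log2 fold changes with their standard error (SE) from edgeR's quasi-likelihood test, fitted on all 15224 genes and all 9 libraries. Adjusted p-values are Benjamini-Hochberg values over all genes tested, and a gene is said to rise or fall where its adjusted p was under 0.05.

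Tgfb2 was the only one of the 10 genes to pass this threshold, and it rose between 30 and 60 days and stayed at that level at 90 days. The 250 bases upstream of its RefSeq start site (chr1:186705990-186706239, minus strand, GRCm38.p6) are shown beside those of Tgfb1 (chr7:25686752-25687001, plus strand), a ligand gene of the same family for which no change passed the threshold, to let the promoters of the ligands be compared. Capitals mark matches to 4 motifs: the E-box CACGTG, the cAMP response element half-site CGTCA and the Smad box CAGAC on both strands, and the TATA box TATAAA on the gene's strand. No matches overlap in these windows.
Tgfb2: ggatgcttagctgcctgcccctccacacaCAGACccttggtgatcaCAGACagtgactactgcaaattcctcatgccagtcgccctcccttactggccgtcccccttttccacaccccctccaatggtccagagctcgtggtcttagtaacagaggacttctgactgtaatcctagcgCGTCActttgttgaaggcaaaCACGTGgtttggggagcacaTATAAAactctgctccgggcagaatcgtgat
Tgfb1: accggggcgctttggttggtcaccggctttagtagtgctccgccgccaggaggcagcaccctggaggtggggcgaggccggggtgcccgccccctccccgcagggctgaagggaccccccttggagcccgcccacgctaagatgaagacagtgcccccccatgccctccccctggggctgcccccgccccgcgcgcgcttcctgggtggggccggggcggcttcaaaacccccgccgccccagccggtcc

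The Tgfb2 window holds a match to all 4 motifs. The TATA box begins 31 bases upstream of the start, the E-box 51 bases, the cAMP response element half-site 72 bases, and the Smad boxes 204 and 221 bases upstream. The Tgfb1 window holds none of them and is 75.2% G and C, against 53.6% for Tgfb2 and a median of 52.4% over all windows. Of 32851 RefSeq promoter windows of the same length, 7.59% held the TATA box, 6.02% the E-box, 17.8% the cAMP response element half-site and 42.2% the Smad box. Windows were found for 7 of the 10 genes, with more than 1 start for Tgfbr1 and Ltbp1. Among them the E-box occurred in Tgfb2 alone, and Inhba, with a TATA box 91 bases upstream, was the only other gene with that motif. The cAMP response element half-site was also found in Ltbp1, and the Smad box in Ltbp1, Tgfbr1 and Tgfbr2. No change of these genes passed the threshold. A match describes letters in the window and says nothing of binding, which was not measured.

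Tgfb2 (ENSMUSG00000039239, chromosome 1, 186622792 to 186705989, minus strand in GRCm38) encodes the TGF-beta ligand that depends most on betaglycan for binding its receptors. Its level was 56.3, 59.4 and 64.7 CPM in the 30-day libraries, 84.6, 93.8 and 107 CPM at 60 days, and 82.2, 105 and 106 CPM at 90 days, with samples 1, 2 and 3 in order. All 6 later libraries were above all 3 libraries of 30 days, and the 60- and 90-day groups overlapped over most of their range. The group means were 60.1 ± 4.26, 95.1 ± 11.1 and 97.6 ± 13.4 CPM (SD, n = 3 each). At 60 against 30 days its log2 fold change was 0.66 ± 0.12 (SE; edgeR adjusted p = 0.00586), a 1.58-fold rise with a 95% interval of 1.33 to 1.88. From 30 to 90 days it was 0.70 ± 0.12 (SE; edgeR adjusted p = 0.00238), or 1.62-fold with an interval of 1.36 to 1.93. These comparisons share the 30-day libraries. From 60 to 90 days the difference was 0.04 ± 0.12 on the log2 scale (SE; edgeR adjusted p = 0.944), with an interval from -0.21 to 0.28. The test of any difference among the time points gave an edgeR adjusted p of 0.00324.

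The rises rested on 794 to 1093 counts per library at 30 days and 1960 to 3045 later. With all libraries drawn down to the smallest total, the log2 fold changes were 0.68 from 30 to 60 days and 0.72 from 30 to 90 days, so the rise was as large with equal library totals. An annotated antisense gene, Gm29491, overlaps 124 exon bases of Tgfb2 on the opposite strand. Its own count did not exceed 9 in any library. In bulk tissue, a change in the number of cells that make a transcript and a change in the transcript per cell cannot be told apart.

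Among the cell type markers, the summed level of the granular duct list separated 30 days from both later groups, as Tgfb2 did. Its 7 genes had median log2 fold changes of 1.92 from 30 to 60 days and 1.89 from 30 to 90 days. Both medians were larger than the changes of Tgfb2. The 7 genes summed to 20964 to 29006 CPM at 30 days, 41443 to 50377 CPM at 60 days and 36334 to 49682 CPM at 90 days. Of the 7, 6 rose both from 30 to 60 and from 30 to 90 days, beside 1.14% and 1.81% of all genes. The list of myoepithelial and smooth muscle genes summed to 246 to 349 CPM at 30 days, 380 to 415 CPM at 60 days and 345 to 475 CPM at 90 days. Of its 5 tested genes 1, Actg2, was higher at 90 than at 30 days, beside 1.81% of all genes. The acinar list summed to 446755 to 634682 CPM at 30 days, 354035 to 517828 CPM at 60 days and 304920 to 448886 CPM at 90 days. Most of this sum was Mucl2, at 264698 to 519020 CPM, so it says little of the other acinar genes. Log2 fold changes were positive for 3 of the 7 from 30 to 60 days, 1 from 60 to 90 days and 2 from 30 to 90 days. In these comparisons 0, 1 and 1 of the 7 fell and 0 rose, where 0.427%, 0.164% and 1.77% of all genes fell. For the fibroblast list the ranges overlapped, at 290 to 437 CPM at 30 days, 284 to 404 CPM at 60 days and 344 to 409 CPM at 90 days. The sums of the B and plasma cell, T cell, and other duct and basal lists were higher at 90 than at 30 days with no overlap. From 30 to 90 days, 0 of 3 tested B and plasma cell genes rose, as did 0 of 4 tested T cell genes. In the list of other duct and basal genes 1 of 8 rose, and 1.81% of all genes rose in that comparison. The B and plasma cell list summed to 23.5 to 59.9 CPM at 30 days, 26.6 to 36.2 CPM at 60 days and 78.5 to 117 CPM at 90 days. The T cell list summed to 1.06 to 1.60 CPM, 0.863 to 2.34 CPM and 3.24 to 10.5 CPM, and the list of other duct and basal genes to 423 to 468 CPM, 436 to 490 CPM and 487 to 581 CPM. The part of these cell types in the rise of Tgfb2, and in the 90-day changes of the other genes described here, was not tested.

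**Figure D1:**
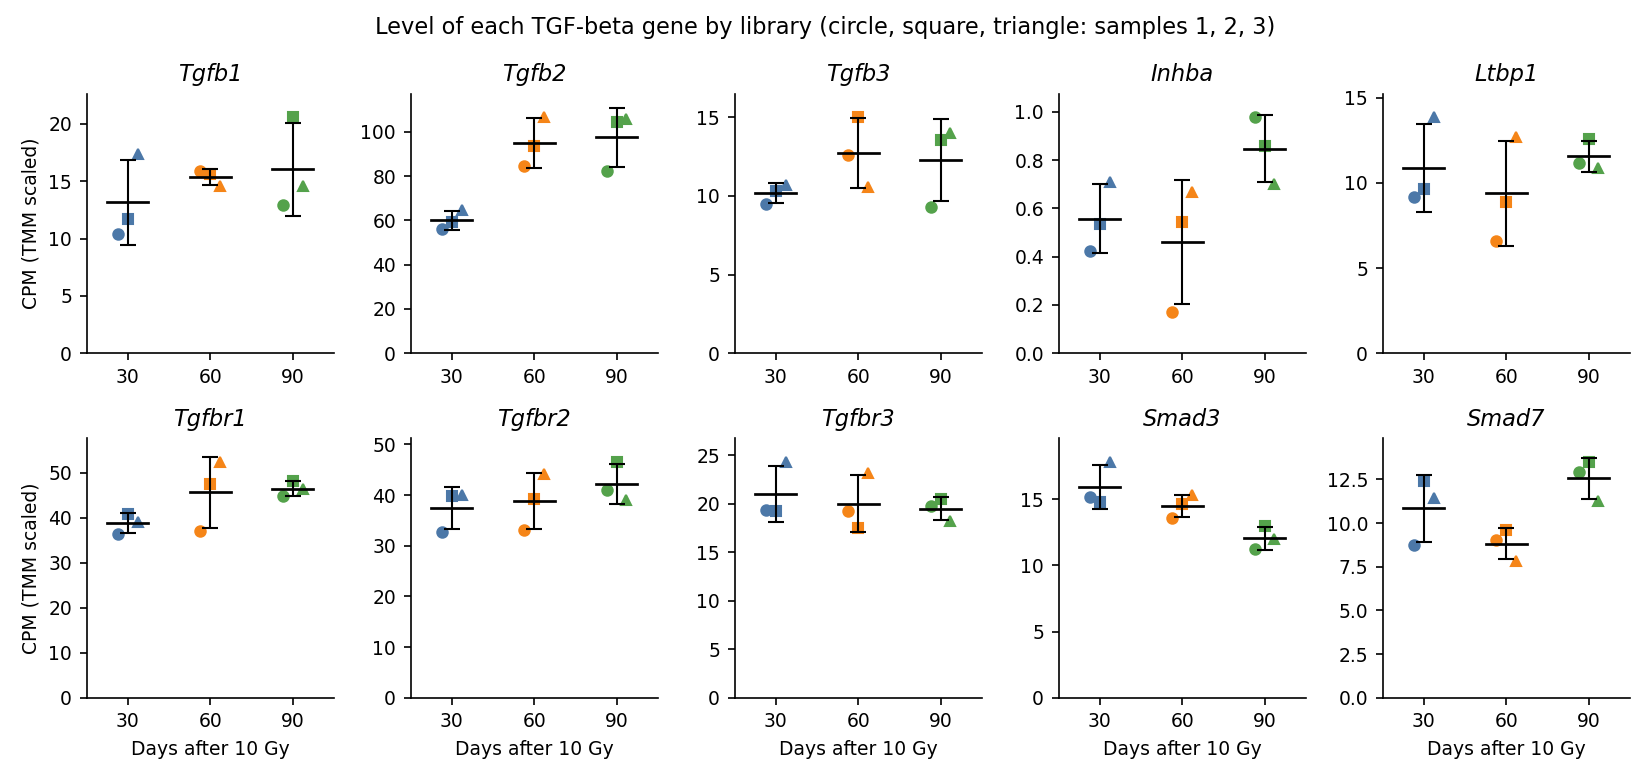
Level of each of the 10 genes in CPM (y axis, from 0) against days after irradiation (x axis). Symbols are libraries (circle, square and triangle for samples 1, 2 and 3), horizontal bars are means and error bars SD over 3 libraries. All 6 Tgfb2 values at 60 and 90 days lie above those at 30 days, and the 90-day values of Smad3 lie below those of 30 and 60 days.

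The other ligand genes did not pass the threshold. Tgfb1 (ENSMUSG00000002603), the isoform most often tied to fibrosis, measured 10.4, 11.7 and 17.3 CPM at 30 days, 15.9, 15.6 and 14.6 CPM at 60 days and 12.9, 20.6 and 14.6 CPM at 90 days. The spread within the 30- and 90-day groups covered the 60-day values, and all groups overlapped. Between 30 and 90 days its log2 fold change was 0.28 ± 0.19 (SE; edgeR adjusted p = 0.502), with an interval from -0.12 to 0.68. The highest Tgfb1 value belonged to 90-day sample 2, which was also highest of the 9 libraries in the summed levels of the macrophage list (231 CPM, against 104 to 196 in the others) and the T cell list (10.5 CPM, against 0.863 to 4.37). That library was highest as well for the lists of B and plasma cells (117 CPM), myoepithelial and smooth muscle genes (475 CPM), and other duct and basal genes (581 CPM). The same held for the endothelial list (102 CPM) and the platelet and megakaryocyte list (4.26 CPM). The part of any of these cell types in the Tgfb1 value was not tested.

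Tgfb3 (ENSMUSG00000021253), the third isoform, measured 9.50, 10.3 and 10.7 CPM at 30 days, 12.6, 15.0 and 10.6 CPM at 60 days and 9.27, 13.6 and 14.0 CPM at 90 days. Its groups overlapped as well. Log2 fold changes were 0.32 ± 0.17 from 30 to 60 days and 0.26 ± 0.17 from 30 to 90 days (SE; edgeR adjusted p = 0.486 for both). Their intervals ran from -0.05 to 0.68 and from -0.10 to 0.63. Whether Tgfb3 changed less than Tgfb2 was not tested, and the ratio of these genes within each library is given below.

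Inhba (ENSMUSG00000041324) was the rarest of the 10 transcripts. It had 6, 9 and 12 counts at 30 days, 4, 12 and 16 at 60 days and 29, 25 and 14 at 90 days. The 90-day libraries, at 0.703 to 0.978 CPM, were all above the 60-day libraries, at 0.173 to 0.668 CPM. The 60- and 90-day groups differed by a log2 fold change of 0.88 ± 0.53 (SE; edgeR adjusted p = 0.582), with an interval from -0.24 to 1.99, and it did not pass the threshold.

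The make-up of the ligand pool was described as the share of each isoform in the summed counts per base of exon of Tgfb1, Tgfb2 and Tgfb3, a measure that does not depend on scaling between libraries. Tgfb2 made up most of it in every library. Its share was 66.6%, 65.6% and 62.8% at 30 days, 68.0%, 68.3% and 75.4% at 60 days and 72.8%, 69.1% and 72.2% at 90 days. All 6 later libraries lay above the 30-day range, with the lowest 60-day value close to the highest 30-day value. The mean share of Tgfb2 went from 65.0 ± 1.95% to 70.6 ± 4.21% and 71.4 ± 2.01% (SD, n = 3 each). Tgfb1 held 16.1 ± 2.82%, 13.2 ± 1.43% and 13.4 ± 2.11%, and Tgfb3 18.9 ± 0.924%, 16.3 ± 3.11% and 15.2 ± 1.15% in the order of the time points (SD, n = 3 for each value). The shares depend on the length used for each gene. With the longest transcript in place of all exons, Tgfb2 held 59.4%, 65.5% and 66.1%, and Tgfb1 25.4%, 21.2% and 21.4%.

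**Figure D2:**
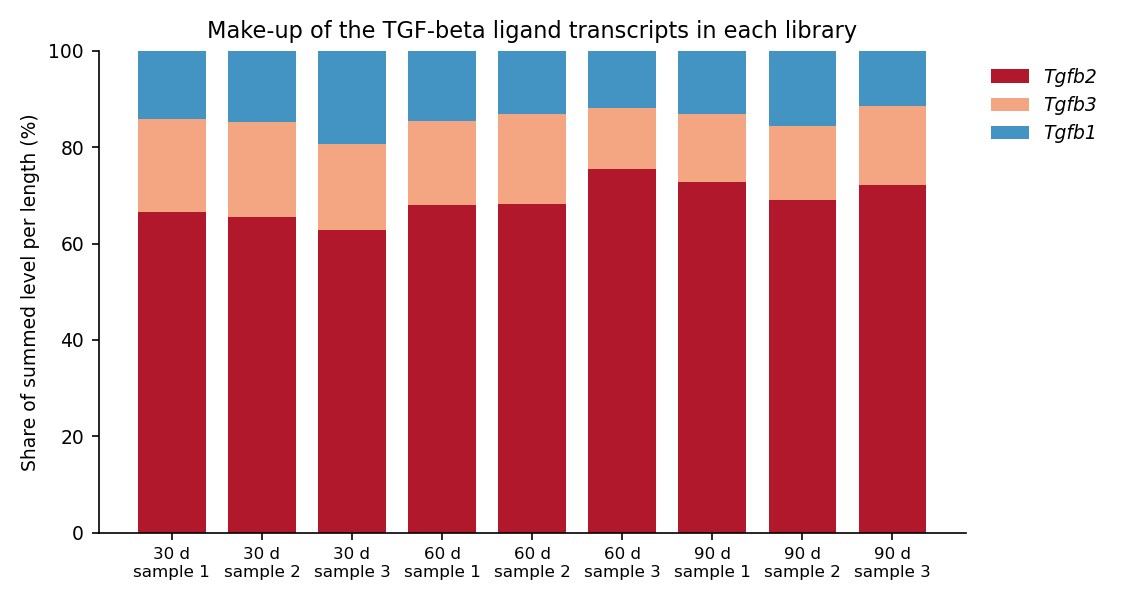
Share of Tgfb2, Tgfb3 and Tgfb1 (stacked bars, in percent) in the summed counts per base of exon of these genes, 1 bar per library, ordered by days after irradiation. Tgfb2 takes between 62.8% and 75.4% of every bar, and its bar is lower in the 3 libraries of 30 days than in the other 6.

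Ltbp1 (ENSMUSG00000001870), whose product anchors the latent ligand in the matrix, did not separate the time points. It measured 9.14, 9.63 and 13.9 CPM at 30 days, 6.60, 8.86 and 12.7 CPM at 60 days and 11.2, 12.6 and 10.9 CPM at 90 days. The groups overlapped, with log2 fold changes of -0.21 ± 0.21 from 30 to 60 days, 0.30 ± 0.21 from 60 to 90 days and 0.08 ± 0.21 from 30 to 90 days (SE; edgeR adjusted p = 0.744, 0.645 and 0.899). In each group the library with the most Ltbp1 also had the highest summed level of the fibroblast list. At 30 and 60 days it was sample 3, at 437 and 404 CPM, against 290 and 341 CPM and 284 and 360 CPM in the others. At 90 days it was sample 2, at 409 CPM against 362 and 344 CPM. These libraries were also highest in their groups for the macrophage list (196, 144 and 231 CPM) and the myoepithelial and smooth muscle list (349, 415 and 475 CPM). The part of these cell types in the spread of Ltbp1 was not tested.

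No receptor gene passed the threshold. Tgfbr1 (ENSMUSG00000007613, chromosome 4, 47353222 to 47414931, plus strand), the type I receptor kinase, measured 36.4, 40.9 and 39.1 CPM at 30 days, 37.1, 47.5 and 52.5 CPM at 60 days and 44.8, 48.3 and 46.4 CPM at 90 days. The 90-day values were all above the 30-day values, while the 60-day values spanned both. Its 90-day level differed from the 30-day level by a log2 fold change of 0.26 ± 0.12 (SE; edgeR adjusted p = 0.271, unadjusted p = 0.0406). Tgfbr2 (ENSMUSG00000032440), the ligand-binding type II receptor, measured 32.7 to 40.0 CPM at 30 days, 33.2 to 44.1 CPM at 60 days and 39.1 to 46.6 CPM at 90 days, and these ranges overlapped. Between 30 and 90 days its log2 fold change was 0.17 ± 0.12 (SE; edgeR adjusted p = 0.530), with an interval from -0.08 to 0.43. Tgfbr3 (ENSMUSG00000029287), the co-receptor betaglycan, ranged from 19.3 to 24.3 CPM, 17.5 to 23.2 CPM and 18.2 to 20.5 CPM at the successive time points. Its 90-day level differed from the 30-day level by a log2 fold change of -0.11 ± 0.13 (SE; edgeR adjusted p = 0.768), with an interval from -0.39 to 0.18, and 0.12 with library totals as the only scaling.

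Smad3 and Smad7 had the lowest adjusted p-values among the genes that did not pass. Smad3 (ENSMUSG00000032402, chromosome 9, 63646767 to 63757994, minus strand), a transcription factor that the type I receptor activates, measured 15.2, 14.7 and 17.8 CPM at 30 days, 13.6, 14.6 and 15.3 CPM at 60 days and 11.2, 13.0 and 11.997 CPM at 90 days. All 3 values at 90 days were below all 6 earlier values. Between 30 and 90 days its log2 fold change was -0.40 ± 0.13 (SE; edgeR adjusted p = 0.107, unadjusted p = 0.00720), with an interval from -0.68 to -0.12. With library totals as the only scaling it was -0.18 (edgeR adjusted p = 0.625), where the median of all genes stood at 0.24.

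Smad7 (ENSMUSG00000025880), the inhibitory Smad, measured 8.72, 12.4 and 11.4 CPM at 30 days, 9.02, 9.59 and 7.84 CPM at 60 days and 12.9, 13.5 and 11.2 CPM at 90 days. The 90-day values were all above the 60-day values, and the 30-day values overlapped both groups. At 90 against 60 days its log2 fold change was 0.51 ± 0.16 (SE; edgeR adjusted p = 0.241, unadjusted p = 0.00412), with an interval from 0.18 to 0.84. The contrast of 60 days with the mean of 30 and 90 days was -0.41 ± 0.14 (SE; edgeR adjusted p = 0.300), and for Tgfb2 it was 0.31 ± 0.10 (SE; edgeR adjusted p = 0.262). These were the 2 of 10 genes with an unadjusted p under 0.05 in that contrast, beside 9.45% of all genes.

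**Figure D3:**
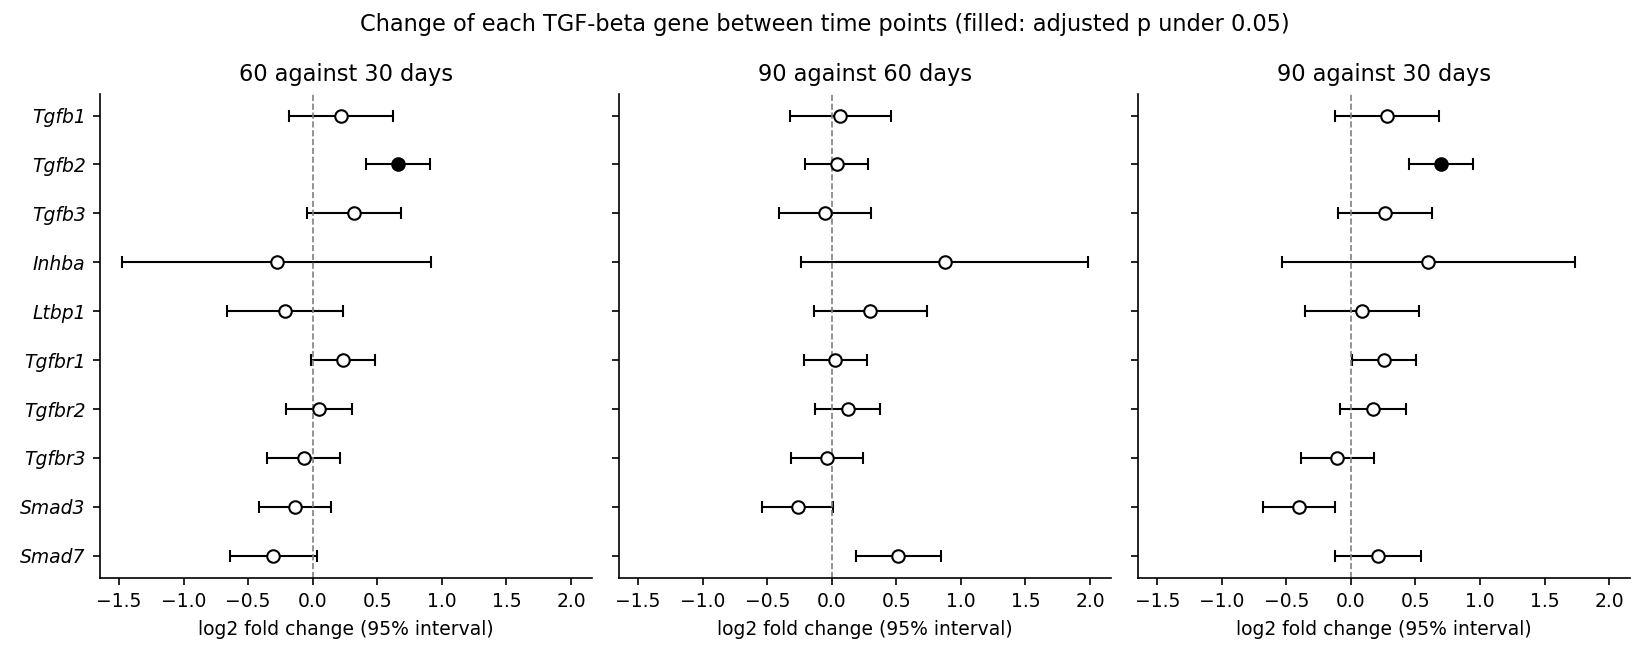
Log2 fold change of each of the 10 genes (x axis) in 3 comparisons, with its 95% interval from edgeR's fit as the horizontal line. Filled points have an adjusted p under 0.05, which holds for Tgfb2 at 60 and at 90 days against 30 days, and the interval of Inhba is the widest of the 10.

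As a whole, 1 of the 10 genes changed from 30 to 60 days, 0 from 60 to 90 days, and 1 from 30 to 90 days, in each case Tgfb2. Among all 15224 genes tested, 1.56% changed from 30 to 60 days (1.14% higher), 0.256% from 60 to 90 days (0.092% higher) and 3.57% from 30 to 90 days (1.81% higher, 1.77% lower). The counts at an unadjusted p under 0.05 were 1, 1 and 3 of 10, where 12.4%, 10.8% and 16.8% of all genes had such a p. DESeq2 called 0 of the 10 from 60 to 90 days, beside 150 of all 15224 genes. The values of the groups did not overlap for 1 of 10 genes from 30 to 60 days (1 higher, beside 8.65% of all genes higher and 16.9% in either direction). They did not overlap for 3 of 10 from 60 to 90 days (2 higher and 1 lower, beside 8.3% and 7.64%, and 15.9% in either direction), and for 3 of 10 from 30 to 90 days (2 higher and 1 lower, beside 11.4% and 11.8%, and 23.2% in either direction). Log2 fold changes were positive for 5, 7 and 8 of 10 genes, with medians of -0.01, 0.05 and 0.23, beside 49.6%, 50.1% and 52.1% of all genes and medians of 0.00, 0.00 and 0.01. Over all genes, the number called from 30 to 90 days went from 544 to 184 without 30-day sample 1, 333 without 30-day sample 2, 190 without 90-day sample 2 and 246 without 90-day sample 3, while Tgfb2 was called each time. With so few genes these counts do not set the group apart from the background. The test of any difference among time points called 1 of 10, beside 3.29% of all genes, and gave 3 of 10 an unadjusted p under 0.05, beside 16.7% of all genes.

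Levels of different genes were compared as RPKM, the TMM-scaled CPM per kilobase of exon, averaged over the 9 libraries. Tgfb2 was the most abundant at 14.6 ± 3.49 RPKM (SD, n = 9), above Tgfbr1 at 6.68 ± 0.849 and Tgfbr2 at 4.83 ± 0.549, and this order held in all 9 libraries. Tgfb3 (3.47 ± 0.623), Tgfbr3 (3.08 ± 0.342), Tgfb1 (2.94 ± 0.604), Smad3 (2.55 ± 0.357) and Smad7 (2.38 ± 0.448) followed in RPKM, each above the next in only 5 to 7 of 9 libraries, so neighbours in this stretch did not differ beyond their spread. Ltbp1 at 0.992 ± 0.212 RPKM and Inhba at 0.0973 ± 0.0373 RPKM were below these in all 9 libraries.

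Ratios between genes within a library need no scaling between libraries. Tgfb2 over its type II receptor gene Tgfbr2, in counts per base of exon, was 2.43, 2.11 and 2.29 at 30 days, 3.61, 3.39 and 3.42 at 60 days and 2.83, 3.18 and 3.83 at 90 days. Every library of 60 and 90 days was above the 30-day range. Tgfb2 over Tgfb3 was 3.45 ± 0.0859, 4.49 ± 1.23 and 4.70 ± 0.417 (SD, n = 3 each), again with no overlap between 30 days and either later group, whereas Tgfb2 over Tgfb1 overlapped between all groups. Smad7 over Smad3, the inhibitor over a transducer, was 0.705, 1.03 and 0.786 at 30 days, 0.816, 0.805 and 0.630 at 60 days and 1.41, 1.28 and 1.15 at 90 days. All 3 ratios at 90 days were above all 6 earlier ones. These ratios were chosen after the values were seen and were not tested.

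**Figure D4:**
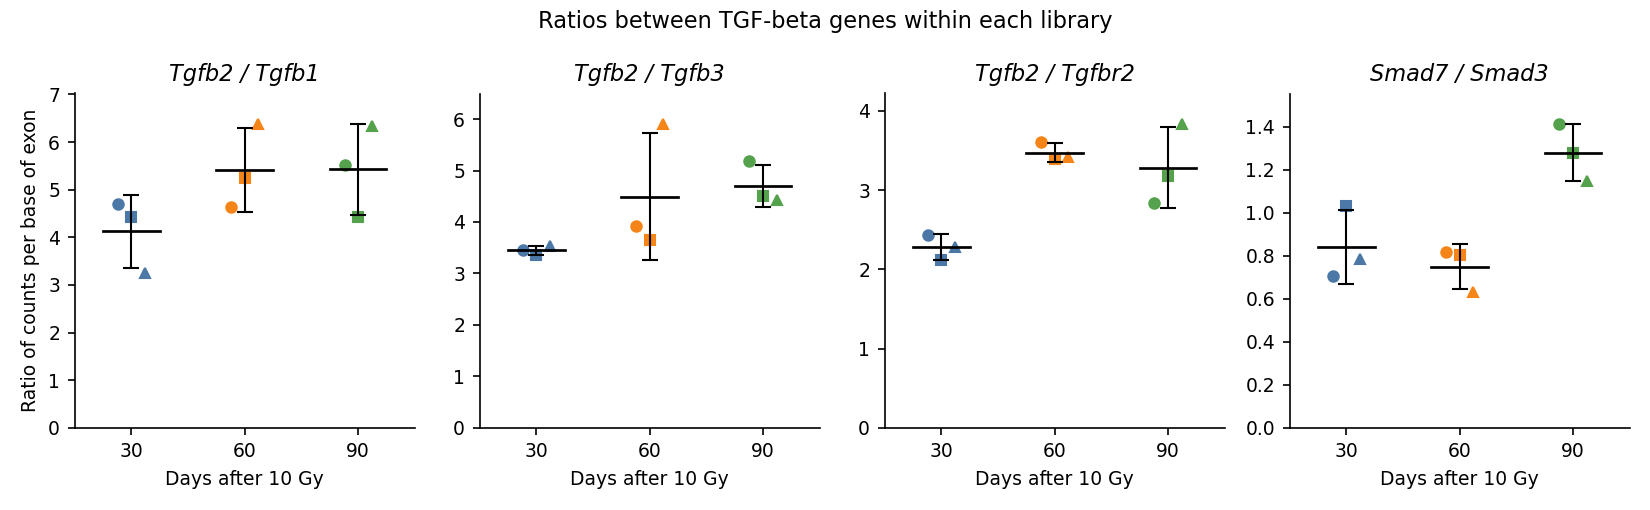
Ratio of counts per base of exon between pairs of genes (y axis, from 0) against days after irradiation. Symbols are libraries (circle, square and triangle for samples 1, 2 and 3), bars are means and error bars SD over 3 libraries. Tgfb2 over Tgfbr2 and Tgfb2 over Tgfb3 are lowest in the 30-day libraries, and Smad7 over Smad3 is highest in the 90-day libraries.

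The genes whose pattern over the 9 libraries was most like that of Tgfb2 were found by the root mean square difference between log2 CPM values, each gene centred on its own mean. The 5 nearest were Cpq (0.0917), Sema3c (0.0919), Ablim1 (0.0941), Fa2h (0.102) and Nudt4 (0.103), against 0.345 for Tgfb2 from its own mean. Sema3c, which encodes a secreted semaphorin, averaged 61.7, 103 and 98.2 CPM at the successive time points. All of these values share the same 9 libraries and their scaling.

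Other genes of the pathway were taken from a list of 44, of which 40 passed the filter. Of these, 0 of 40 changed from 30 to 60 days and 0 of 40 from 60 to 90 days. At an unadjusted p under 0.05 there were 7 and 4, beside 12.4% and 10.8% of all genes. DESeq2 called 3 from 30 to 60 days and 0 from 60 to 90 days, beside 376 and 150 of all 15224 genes. From 30 to 90 days 2 of 40 rose and 1 fell, beside 1.81% and 1.77% of all genes, and 10 of 40 had an unadjusted p under 0.05, beside 16.8% of all genes. DESeq2 called 4 there, beside 867 of all 15224 genes. The median log2 fold change from 30 to 90 days was 0.09, beside 0.01 over all genes. Both genes that rose belong to latency and activation, where 2 of 13 passed. Thbs1, which encodes thrombospondin, an activator of latent TGF-beta, measured 15.4, 24.8 and 22.3 CPM at 30 days, 34.0, 34.5 and 37.6 CPM at 60 days and 40.3, 79.8 and 48.4 CPM at 90 days. The ranges of the 3 time points did not overlap. The highest value was that of 90-day sample 2, the library that was also highest for several marker lists, immune and other. The part of these cell types in the Thbs1 level was not tested. The 90-day level of Thbs1 differed from its 30-day level by a log2 fold change of 1.43 ± 0.26 (SE; edgeR adjusted p = 0.0203). That call was lost under 5 of 18 alternatives, among them the fit of the 6 samples of the contrast alone (edgeR adjusted p = 0.0991) and the fits without 30-day sample 1 or sample 3 and without 60-day sample 1 or sample 3 (0.0519 to 0.0616).

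Furin, the protease that cleaves the TGF-beta propeptide, measured 72.7, 78.6 and 77.7 CPM at 30 days, 100.01, 99.7 and 94.7 CPM at 60 days and 114, 111 and 98.5 CPM at 90 days. All 6 later values were above those of 30 days. Between 30 and 90 days its log2 fold change was 0.50 ± 0.10 (SE; edgeR adjusted p = 0.00664), and it passed under all 18 alternatives. From 30 to 60 days it was 0.36 ± 0.10 (SE; edgeR adjusted p = 0.0802). The gene that fell was Inha, which encodes the inhibin alpha subunit, a partner that turns activin subunits into antagonists of activin. It measured 13.1, 11.1 and 10.3 CPM at 30 days, 5.53, 6.15 and 7.13 CPM at 60 days and 6.44, 3.57 and 7.18 CPM at 90 days, with no overlap between 30 days and either later group. Its 90-day level differed from the 30-day level by a log2 fold change of -1.01 ± 0.22 (SE; edgeR adjusted p = 0.0138). The call was lost with library totals as the only scaling (edgeR adjusted p = 0.0656), without 30-day sample 1 (0.0793) and without 90-day sample 2 (0.0645).

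The remaining classes of the list held no gene past the threshold. These were 6 tested receptors, 12 Smads and regulators, and 6 extracellular antagonists. Smad2, which shares the role of Smad3, and Smad4, the common partner of both, had log2 fold changes from 30 to 90 days of -0.05 ± 0.15 and -0.04 ± 0.11 (SE; edgeR adjusted p = 0.918 and 0.902), and both signs turned with library totals as the only scaling. Skil and Pmepa1, feedback inhibitors that the pathway induces, had 0.03 ± 0.13 and 0.18 ± 0.16 (SE; edgeR adjusted p = 0.939 and 0.646). Of 13 tested genes of the related bone morphogenetic protein (BMP) branch, 0 passed in any pairwise comparison. For 60 against 30, 90 against 60 and 90 against 30 days, 1, 1 and 3 had an unadjusted p under 0.05 (12.4%, 10.8% and 16.8% of all genes). In each, DESeq2 called 1 of the 13, beside 376, 150 and 867 of all 15224 genes. The test of any difference called 1 of the 13, beside 3.29% of all genes. It called 3 of the 40 other pathway genes and 1 of the 22 targets described next.

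All 22 genes of a list of known TGF-beta targets passed the filter. Changes passed for 0 genes from 30 to 60 days and 0 from 60 to 90 days. At an unadjusted p under 0.05 there were 4 and 3, beside 12.4% and 10.8% of all genes. DESeq2 called 1 and 0, beside 376 and 150 of all 15224 genes. From 30 to 90 days 1 of 22 rose and 1 fell, beside 1.81% and 1.77% of all genes, and 8 of 22 had an unadjusted p under 0.05, beside 16.8% of all genes. DESeq2 called 5 there, beside 867 of all 15224 genes. The median log2 fold change from 30 to 90 days was 0.20, with 16 of 22 positive, beside 0.01 and 52.1% over all genes. Sphk1, which encodes sphingosine kinase, rose from 3.90, 4.22 and 5.45 CPM to 7.92, 8.22 and 6.68 CPM, by 0.75 ± 0.20 on the log2 scale (SE; edgeR adjusted p = 0.0457). Bhlhe40, which encodes a transcriptional repressor that also acts in the circadian clock, fell from 136, 112 and 102 CPM to 89.9, 89.2 and 87.5 CPM, with a log2 fold change of -0.39 ± 0.11 (SE; edgeR adjusted p = 0.0481). Both calls were lost under 9 of 18 alternatives, with adjusted p-values of up to 0.207 for Sphk1 and 0.570 for Bhlhe40, the latter with library totals as the only scaling (log2 fold change -0.15). The same 6 libraries, 30-day samples 1 and 2, 60-day sample 2 and all 3 samples of 90 days, each ended both calls when left out, with edgeR adjusted p-values of 0.0645 to 0.207 for Sphk1 and 0.0821 to 0.288 for Bhlhe40.

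The established target Ccn2, which encodes connective tissue growth factor, did not pass. It measured 11.9, 8.26 and 14.4 CPM at 30 days, 12.7, 15.6 and 18.9 CPM at 60 days and 17.8, 28.5 and 17.9 CPM at 90 days. The highest value was again that of 90-day sample 2, and the part of cell types in it was not tested. All 90-day values were above those of 30 days, and the log2 fold change was 0.90 ± 0.23 (SE; edgeR adjusted p = 0.0574, between 2.28e-07 and 0.206 over 18 alternatives, of which 5 were under 0.05, among them the fits without 30-day sample 3 at 0.0312 and without 90-day sample 1 at 0.0384).

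The matrix genes of the target list did not pass the test in any comparison. Col1a1, Col1a2, Col3a1, Col5a1 and Fn1, which encode fibrillar collagen chains and fibronectin, had log2 fold changes between -0.18 and 0.12 from 30 to 90 days (lowest edgeR adjusted p = 0.807), and their intervals together ran from -0.76 to 0.74. Col1a1 measured 39.3, 55.8 and 83.9 CPM at 30 days, 39.7, 48.9 and 66.0 CPM at 60 days and 53.7, 67.9 and 56.2 CPM at 90 days. The range within the 30-day group was wider than that of either later group. Acta2, a marker of contractile cells that the gland's myoepithelium also expresses, had a log2 fold change of 0.47 ± 0.14 from 30 to 90 days (SE; edgeR adjusted p = 0.0632).

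**Figure D5:**
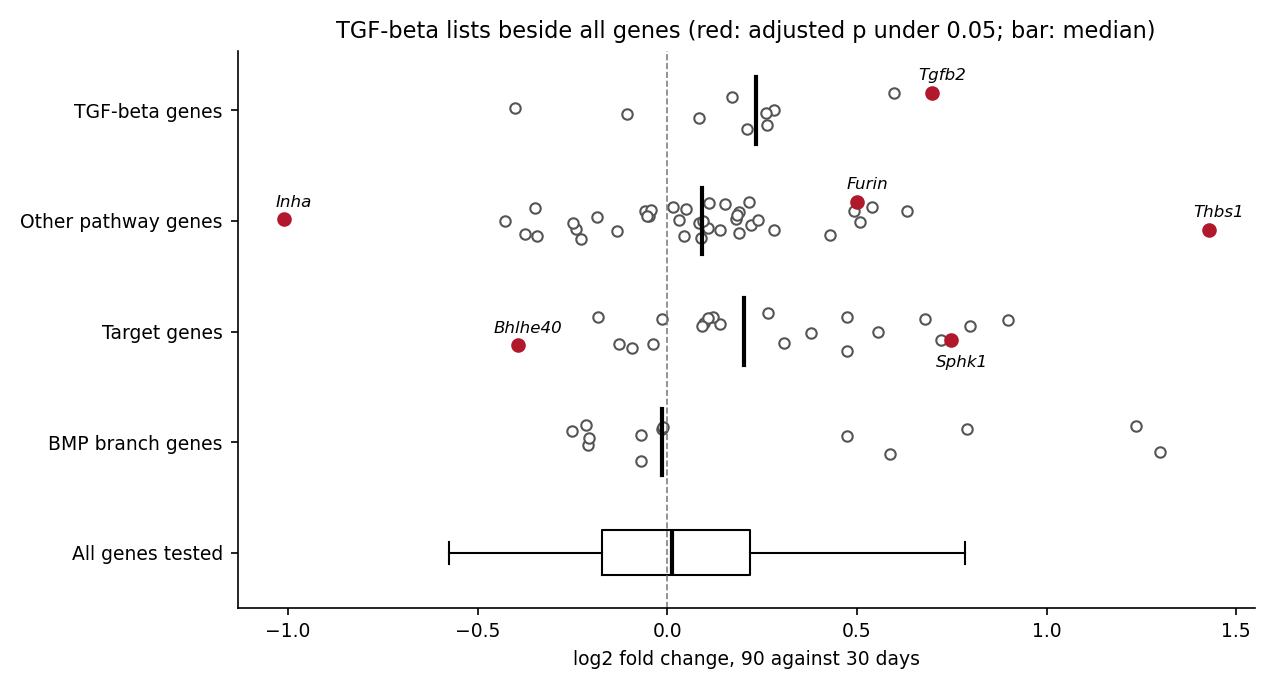
Log2 fold change from 30 to 90 days (x axis) of each tested gene in the lists of TGF-beta genes, other pathway genes, target genes and BMP branch genes, with list medians as black bars and genes with an adjusted p under 0.05 in red and named. The box of all 15224 genes spans the quartiles, with whiskers from the 5th to the 95th percentile. List medians are 0.23, 0.09, 0.20 and -0.01, beside 0.01 for all genes.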

How the data were processed

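Gene-level read counts were deposited by the authors, and per the submitters' processing notes the reads were handled with fastp, STAR and featureCounts on mm10. Versions, annotation and the use of strand are not given in the sources used here. The counts were whole numbers for 54532 Ensembl identifiers, of which 27001 had at least 1 count, and 3 further columns that match no listed sample were not used. Symbols, positions and exon lengths came from GENCODE M21 (GRCm38), and promoter windows from RefSeq (GRCm38.p6).

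Genes were filtered with filterByExpr (minimum count 10), scaled by TMM and fitted with edgeR 4.0.16 (robust quasi-likelihood, R 4.3.3) on all 9 libraries, grouped by the day in the sample titles. Pairwise contrasts, a test of any difference, and 60 days against the mean of 30 and 90 days were computed. Intervals (95%) follow from the F statistic and its degrees of freedom. Totals of 16541396 to 26065856 put the limit that a count of 0 allows (3 counts) at 0.115 to 0.181 CPM before TMM scaling. Within each group, libraries differed by more than sampling noise. In data simulated for 90 against 30 days over 14926 genes, the test recovered 67.7% of genes given a log2 fold change of 1 and 88.8% of genes given 2, with 8.98% false calls.

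Alternatives were other scalings, DESeq2 1.42.0, limma 3.58.1 (voom), other filters, equal depth, only the samples of a contrast, the sample number as a block and each library left out. The 10 genes and all lists were chosen with earlier results of these data known. Named from the lists were genes with an adjusted p under 0.05 in a pairwise contrast, and always Ccn2, Thbs1, Smad2, Smad4, Pmepa1, Skil and 1 more gene, which is not reported here. For Tgfb2, the 5 genes nearest in pattern were named as well. Acta2, Col1a1, Col1a2, Col3a1, Col5a1 and Fn1 were added after their values were seen.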

Additional observations from a re-analysis of the deposited data

How the results depend on the processing

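Tgfb2 passed the threshold from 30 to 60 and from 30 to 90 days under all 18 alternatives, with log2 fold changes of 0.57 to 0.74 (adjusted p 1.29e-06 to 0.0427) and 0.63 to 0.91 (1.90e-07 to 0.0231), and no alternative called another of the 10 genes. Over 30 gene and contrast pairs, 514 of 537 values kept their sign, and 19 of the 23 that did not came from leaving out a library. Without 1 library, changes from 60 to 90 days ran from -0.042 to 0.14 for Tgfb2, -0.17 to 0.19 for Tgfb1, -0.18 to 0.11 for Tgfb3, -0.11 to 0.13 for Tgfbr1 and -0.13 to 0.077 for Tgfbr3. From 30 to 60 days they ran from -0.64 to 0.11 for Inhba, -0.49 to 0.0016 for Ltbp1, -0.051 to 0.15 for Tgfbr2 and -0.19 to 0.052 for Tgfbr3. From 30 to 90 days they ran from -0.025 to 0.29 for Ltbp1, -0.17 to 0.0076 for Tgfbr3, -0.18 to 0.044 for Smad2, -0.11 to 0.045 for Smad4, -0.024 to 0.31 for Pmepa1 and -0.056 to 0.070 for Skil. With library totals alone, Tgfb3 (0.13) and Tgfbr3 (0.13) turned from 60 to 90 days, as did Tgfbr3 (0.12), Smad2 (0.19) and Smad4 (0.19) from 30 to 90 days. That scaling moved the median of all genes to 0.05, 0.17 and 0.24 for 60 against 30, 90 against 60 and 90 against 30 days, and of its 440 calls from 30 to 90 days 406 were higher and 34 lower, against 275 and 269. Drawing libraries down turned Tgfb1 from 60 to 90 days (-0.0053). The cause was not tested.

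Counts are given for 60 against 30, 90 against 60 and 90 against 30 days and any difference, in that order. Over all genes they were 238, 39, 544 and 501, and became 376, 150, 867 and 847 with DESeq2 and 459, 354, 1045 and 1194 with no filter. Library totals alone gave 90 for the first and 277 for the last. Leaving out 1 library gave 73 to 244, 16 to 103, 184 to 703 and 220 to 683. For other pathway genes (0, 0, 3 and 3), no filter gave 3, 3, 5 and 5. From 30 to 60 days DESeq2 gave 3, the 6 samples of the contrast alone 2, and equal depth or at least 10 counts in every sample 1. Library totals alone gave 1 for any difference, and leaving out 1 library gave 0 to 2, 0 to 0, 1 to 3 and 0 to 4. For targets (0, 0, 2 and 1), DESeq2 gave 1, 0, 5 and 4, and no filter gave 1 from 30 to 60 days, 5 from 30 to 90 days and 6 for any difference. From 30 to 90 days limma-voom gave 0, and equal depth or the 6 samples alone 1. For any difference both other scalings, limma-voom and equal depth gave 0 targets. Leaving out 1 library gave 0 to 4 targets from 30 to 90 days and 0 to 1 for any difference. For the BMP branch (0, 0, 0 and 1), DESeq2 and no filter each gave 1, 1, 1 and 2. Library totals alone gave 1 from 60 to 90 days, 1 from 30 to 90 days and 2 for any difference, and the 6 samples alone 1 from 30 to 90 days. Limma-voom and equal depth gave 0 for any difference, and leaving out 1 library gave 0 to 1 in all but the first comparison, which stayed at 0. With the longest transcript as length, the ligand shares at 30, 60 and 90 days were 59.4%, 65.5% and 66.1% for Tgfb2 and 25.4%, 21.2% and 21.4% for Tgfb1, and Tgfb3 held 15.2% at 30 and 12.5% at 90 days.

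Whether the sample numbers pair the samples is not known. After removal of the group means, same-numbered samples correlated between -0.06 and 0.19, with 1 of 9 pairs over 0.1. A sample correlated best with its own number in 8 of 18 comparisons with another group. With 3 samples per group these values cannot exclude a pairing, and the main fit used none. With the number as a replicate block, calls over all genes were 270, 92, 717 and 609, those of other pathway genes 2 from 30 to 60 days, those of targets 4 from 30 to 90 days and 3 for any difference, and those of the BMP branch 1 from 30 to 90 days. The block left Tgfb2 at 0.66 and 0.69. Inhba had the fewest counts of the 10 genes, 4 to 29 per library.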
